A study of Homo sapiens with 5 samples.

Results

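The TGF-beta and BMP ligands, receptors, antagonists and SMAD proteins form the signalling core of the TGF-beta superfamily, and their transcripts were followed in neuroblastoma cells while a hairpin against MEIS1 was switched on. The genes were taken from a fixed list of 39 names, and every probe set that the platform annotation gives to 1 of them alone was used. Of the 39 genes 37 had such a probe set, 99 probe sets in all, out of 19775 genes and 41091 probe sets named for 1 gene. No probe set was assigned to BMPR1A or GDF6, which were not analysed here. For summaries, each gene was represented by its brightest probe set, judged by the mean of the 5 arrays.

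The cells were IMR32, an established human neuroblastoma line in which doxycycline switches on an integrated short hairpin RNA (shRNA) directed at MEIS1b, grown in medium with fetal calf serum. MEIS1 is a TALE homeodomain protein that binds DNA. All 5 arrays came from cells carrying the hairpin: 1 array before doxycycline (0 h), then 1 array for each of 24, 48, 96 and 192 h with it. Whether the line was a single clone is not given in the labels, and neither uninduced cells at a later time nor doxycycline-treated cells without this hairpin are among the 5 arrays.

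Ligands of this family are dimers that bring together type II and type I receptor kinases at the cell surface. The type II receptor activates the type I receptor, which phosphorylates SMAD2 and SMAD3 after TGF-beta or activin and SMAD1 and SMAD5 after BMPs, and these enter the nucleus with SMAD4. Secreted antagonists such as noggin, chordin, gremlin and follistatin bind ligands and keep them from their receptors. In the embryo, BMPs from the dorsal aorta prompt neural crest cells to take on a sympathetic neuronal identity, the lineage from which neuroblastoma arises.

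The signals were MAS5 values from Affymetrix U133 Plus 2.0 arrays, each array scaled as a whole, as the deposited values show. The median signal of all probe sets was 16.0 to 19.0 on the 5 arrays. Signals of the brighter MEIS1 probe set were 1052, 851.5, 847.2, 857 and 786.6 in time order, a fitted log2 change of -0.33 ± 0.14 that did not pass (adjusted p = 0.251). Markers of sympathoadrenal neuroblasts summed to 8812.5 to 11122.7 over 7 genes, with MYCN, the amplified oncogene of this line, the brightest at a mean of 4142.9. TH, tyrosine hydroxylase, was dim at a mean of 10.0, with 2.1, 5.5, 4.2, 9.9 and 28.5 in time order. CHGA had a fitted log2 change of 1.04 (adjusted p = 0.00833), and the other 5 tested neuroblast markers did not pass. Marker sums were 39.9 to 80.4 over 6 endothelial genes, 57 to 78.7 over 5 liver genes, 5 to 15 over 2 Schwann cell genes and 4.2 to 11 over 2 blood genes. Fibroblast and mural markers summed to 253.9 to 582 over 6 genes, with PDGFRA the brightest at a mean of 282.1.

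Differences were measured on a log2(signal + 4.7) scale, which understates the change of dim genes. A gene was tested if the mean of its brightest probe set reached 17.9, which is the median of all signals. A straight line over the time steps was fitted with limma across 11944 genes, and the fitted change is the rise of that line over the whole course ± its standard error (SE). With 1 array a time point, a p-value here rests on how far 5 unreplicated arrays lie from that line. That spread is combined with one drawn from genes of similar signal, which weighs more (9.07 prior against 3 residual degrees of freedom). A gene is said to have risen or fallen only with a Benjamini-Hochberg adjusted p under 0.05.

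Of the superfamily core, 2 of the 22 tested genes rose, namely the ligand gene GDF2 and the type I receptor gene ACVR1B, and 1 fell, the co-receptor gene TGFBR3. That is 13.6% of the tested members, against 3.47% of all genes tested. GDF2 was among the tested genes only because its later arrays were high, so its change helped to select it and nothing is read from this share. With no signal filter, or with eBayes without trend, 0 of the 3 passed (adjusted p of 0.123 to 0.194 and 0.0775 to 0.146), though their changes were the same. The gene group was also proposed with earlier results known and GDF2 was already among the largest rises. The median fitted log2 change was -0.07 for the 22 members and 0.003 for all genes, and the median size of the change was 0.25 and 0.21. In the plot of fitted changes, most members sit in or near the band that holds the middle 50% of all genes.

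**Figure D1:**
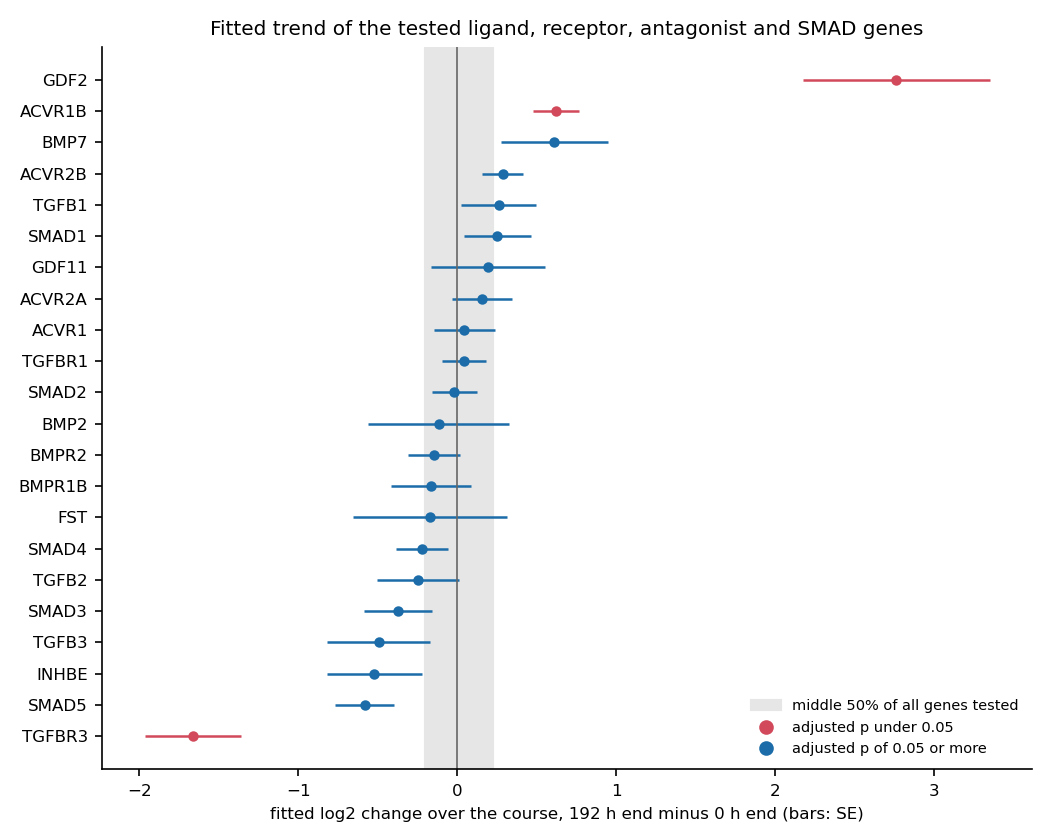
Fitted log2 change over the course, on the log2(signal + 4.7) scale, for the 22 tested genes, with bars for the SE. GDF2 lies at 2.76 and TGFBR3 at -1.66, far from the grey band of the middle 50% of all genes tested, while ACVR1B lies at 0.62 with a short bar.

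The promoters of these genes are shown because they are among the places where a transcription factor such as MEIS1 or a SMAD could act. Each is given as 250 bases before and 50 after the start site (RefSeq, GRCh38.p14). Sites outside these windows were not searched. Capitals mark 3 motifs searched on both strands, of which TGACAG and CAGAC can overlap by the letters CAG: TGACAG, the hexamer read by MEIS proteins, CAGAC, the SMAD box, and GGCGCC, the GC-rich element of the BMP SMADs.
GDF2, chr10:47322204-47322503, plus strand: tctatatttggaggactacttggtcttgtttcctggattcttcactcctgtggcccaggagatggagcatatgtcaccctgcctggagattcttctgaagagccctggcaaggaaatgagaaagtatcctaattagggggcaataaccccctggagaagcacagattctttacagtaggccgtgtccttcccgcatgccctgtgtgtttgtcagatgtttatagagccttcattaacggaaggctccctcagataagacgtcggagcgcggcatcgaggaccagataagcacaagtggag
ACVR1B upstream start, chr12:51951449-51951748, plus strand: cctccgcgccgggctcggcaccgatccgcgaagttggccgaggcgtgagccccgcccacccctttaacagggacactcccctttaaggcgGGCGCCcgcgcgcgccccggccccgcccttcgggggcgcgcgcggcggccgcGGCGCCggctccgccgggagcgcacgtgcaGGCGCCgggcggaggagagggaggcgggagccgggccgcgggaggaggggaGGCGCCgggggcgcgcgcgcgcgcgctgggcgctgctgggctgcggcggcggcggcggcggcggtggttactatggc
ACVR1B downstream start, chr12:51953134-51953433, plus strand: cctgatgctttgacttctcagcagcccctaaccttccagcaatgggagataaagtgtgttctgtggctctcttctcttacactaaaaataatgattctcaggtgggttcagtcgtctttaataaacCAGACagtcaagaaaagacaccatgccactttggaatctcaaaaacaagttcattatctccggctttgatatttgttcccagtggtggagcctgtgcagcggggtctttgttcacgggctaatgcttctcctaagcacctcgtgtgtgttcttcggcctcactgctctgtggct
TGFBR3, chr1:91886102-91886401, minus strand: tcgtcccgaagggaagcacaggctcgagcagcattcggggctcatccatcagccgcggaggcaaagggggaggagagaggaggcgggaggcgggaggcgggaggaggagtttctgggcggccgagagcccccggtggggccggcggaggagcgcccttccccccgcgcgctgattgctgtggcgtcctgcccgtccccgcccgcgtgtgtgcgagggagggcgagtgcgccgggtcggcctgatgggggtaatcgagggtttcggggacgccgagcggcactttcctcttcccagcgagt

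The GDF2 and TGFBR3 windows held none of the 3 motifs. The upstream ACVR1B window, with 82.3% G and C, held 4 copies of GGCGCC, at positions -160, -108, -78 and -27 from the start site, and the downstream window held 1 CAGAC at position -124. The G and C content was 71.7% for TGFBR3 and 50% for GDF2, against a median of 58.7% over all windows. Of the 33 members with a promoter entry that were counted, 8 (24.2%) had TGACAG, against 18.6% of all 27305 genes with an entry. Members on chromosome 8, where GDF6 lies, were left out of the 33, but genes of that chromosome were not left out of the 27305. CAGAC was in 15 of the 33 (45.5%) and in 50% of all genes, and GGCGCC in 15 (45.5%) and in 22% of all genes. These are matches of letters in a short window and were not tested. A gene counted if any of its windows held the motif. Neither the number of windows per gene nor the G and C content of the members' windows was compared with all genes.

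GDF2 encodes BMP9, a circulating ligand made mainly in the liver and best known for acting on endothelial cells through ACVRL1 and endoglin. Its single probe set read 4.5, 3.7, 31.6, 26.6 and 47.5 in time order. The 0 and 24 h arrays were low and the 3 later arrays were all higher, so the course was a step between 24 and 48 h rather than an even climb. No fold is given, since the 0 h signal was smaller than the offset of 4.7. The fitted log2 change was 2.76 ± 0.59 (limma adjusted p = 0.024), and an exact permutation of the 120 array orders gave a two-sided p of 0.0667. The mean of 22.8 passed the signal filter only through the 3 later arrays, so that a gene passing in this way differs between arrays by construction.

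The call for GDF2 depended on single arrays, and the size of its change on the offset. Its adjusted p was 0.0919 when the 0 h array was left out, 0.0607 for the 96 h array and 0.136 for the 192 h array, with a fitted change of 2.38 to 3.08 when each array was left out in turn. The change was 3.48 with an offset 4 times smaller and 1.61 with one 4 times larger. The poly-A spike-in controls, added before labelling, read lower than at 0 h on the same 3 arrays (mean log2 difference of -0.45, -0.61 and -0.25), and with their level in the fit GDF2 had a change of 2.09 and an adjusted p of 0.197. Their part in the result was not tested beyond that fit. Liver markers summed to 62.9, 74.9, 57, 77.6 and 78.7 over the course, with ALB at a mean of 13.9, below the filter; their part was not tested.

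The partners through which GDF2 is known to signal in endothelium were dim. ENG, the co-receptor endoglin, read 3.6, 2.6, 3.9, 26.6 and 14.6 over the 5 time points, and ACVRL1, the type I receptor ALK1, read 18.1, 7.1, 24.4, 4.7 and 3.8. Both had means under the filter, 10.3 and 11.6, and were not tested. BMPR2, a type II receptor for BMPs including GDF2, was well above the filter at 474.4, 436.2, 364.9, 438.7 and 416.7. Its fitted log2 change was -0.14 ± 0.16 (adjusted p = 0.731), and all 4 of its probe sets past the filter ran downward, between -0.71 and -0.14.

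Among the other BMP and GDF ligands, 3 were tested and 0 passed in limma, also 0 at an unadjusted p under 0.05. BMP7, a ligand of neural and kidney development, read 38.7, 32.0, 57.5, 46.9 and 57.5, with a fitted change of 0.61 ± 0.33 (adjusted p = 0.39). Of its 4 probe sets past the filter 3 ran upward and 1 downward, from -0.35 to 0.96, so its probe sets disagreed. GDF11, a relative of myostatin that restrains neuron production in the embryo, read 35.1, 30.6, 38.1, 28.9 and 43.6, and BMP2, a ligand able to drive sympathetic differentiation, read 20.6, 28.8, 18.2, 17.2 and 23.6. Neither GDF11 (0.19 ± 0.36) nor BMP2 (-0.12 ± 0.44) had a fitted change larger than its SE on these brightest probe sets. GDF11 had another probe set past the filter, with a change of 0.71, and 0.45 with the mean over probe sets.

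Another 6 ligand genes of this class, BMP4, BMP5, BMP6, GDF5, GDF7 and GDF10, had means of 4.4 to 12.7 and stayed under the filter. BMP4, chosen here after its values were seen because it is the main BMP of sympathetic development, read 14.9, 4.8, 2.2, 2.0 and 1.8 on its only probe set. It was lower at each later time than at the one before, under the filter throughout, and it was not tested in the fit.

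TGF-beta ligands were measured by 3 genes, all tested, and 0 passed (also 0 at an unadjusted p under 0.05 in limma, a level reached by 17.0% of all genes). TGFB1 read 119.6, 102.2, 110.5, 153.6 and 123.3, highest at 96 h. TGFB2, the isoform with a large part in neural crest and heart development, read 133.8, 181.1, 168.3, 166.6 and 111.7, lowest at 192 h and above 0 h at the 3 times between. TGFB3 read 74.6, 46.2, 67.3, 58.7 and 41.6, below its 0 h signal at all 4 induced times. The fitted changes were 0.26 ± 0.24, -0.25 ± 0.26 and -0.49 ± 0.33. On its brightest probe set TGFB2 had 0.33 without the 192 h array, so the sign there rested on that array. All 3 of its probe sets past the filter ran downward, from -0.63 to -0.25. The second brightest read 68.6, 78.7, 45.9, 51.1 and 47.0, below its 0 h signal from 48 h on.

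Activin and inhibin subunits were mostly dim. INHBE, which encodes the activin beta E chain, was the one tested: it read 178.5 before doxycycline and 95.1, 93, 106.7 and 105.6 afterwards. All 4 induced arrays lay at 53.3% to 60.8% of the 0 h value after the offset was added, a step at 24 h with no further decline. The straight line gave -0.52 ± 0.30 (adjusted p = 0.418), and without the 0 h array it gave 0.25. INHA, INHBA and INHBB had means of 11.6, 8.6 and 1.7.

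**Figure D2:**
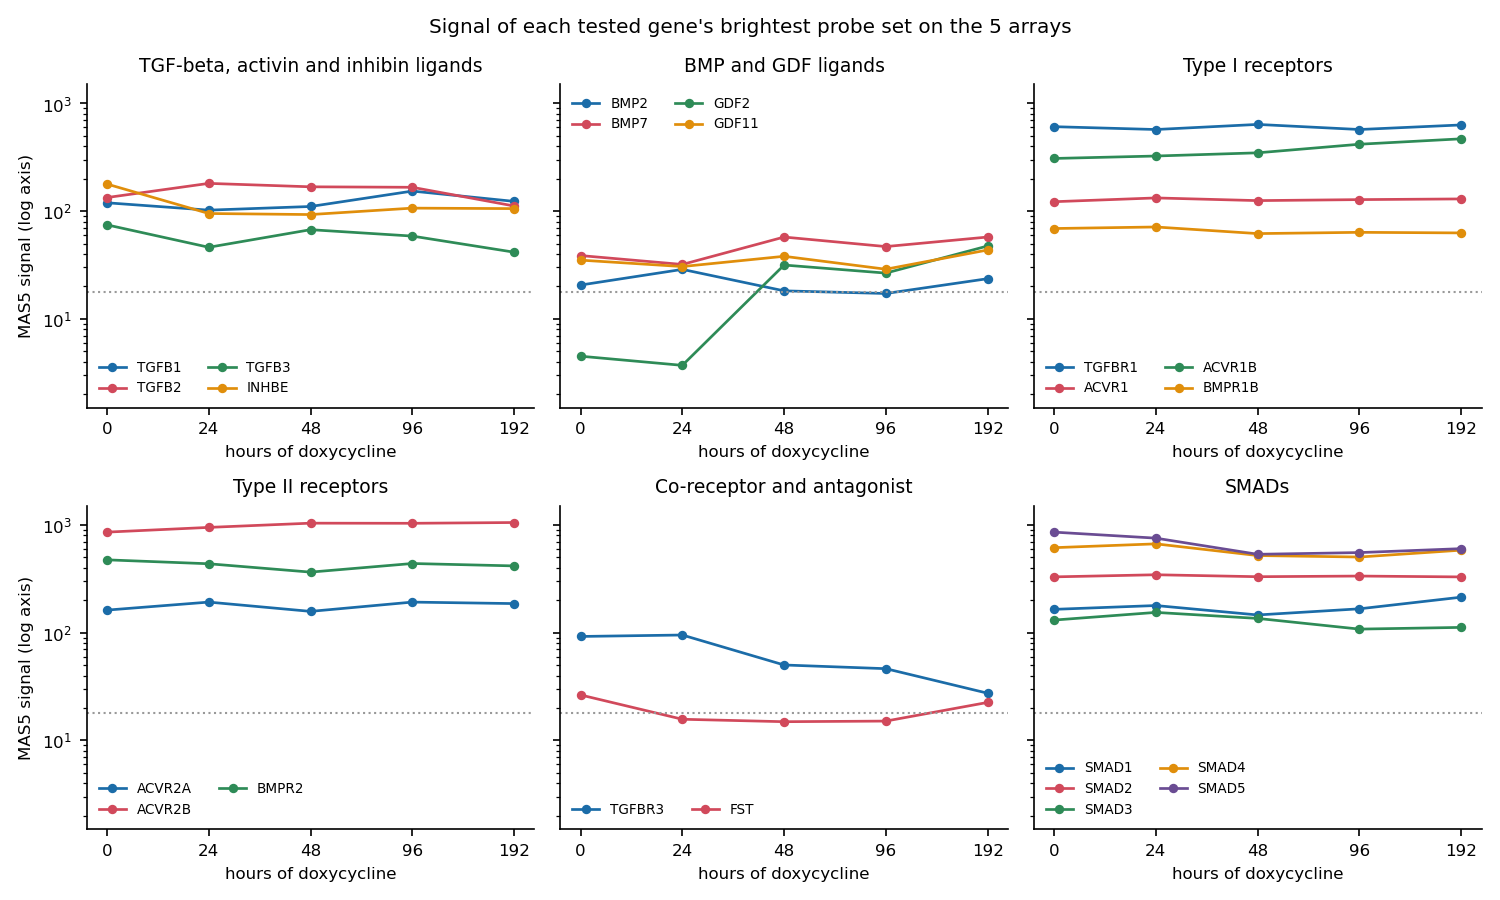
MAS5 signal (log axis) of the brightest probe set of each tested gene at 0, 24, 48, 96 and 192 h of doxycycline, in panels by role, with 1 array a point and a dotted line at the filter of 17.9. GDF2 crosses the filter between 24 and 48 h, TGFBR3 declines after 24 h, ACVR1B climbs, INHBE drops between 0 and 24 h, and most receptor and SMAD lines run flat.

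Of the type I receptors, ACVR1B rose. It encodes ALK4, the activin and nodal receptor that signals to SMAD2 and SMAD3. Its brightest probe set read 308.6, 325.1, 348.1, 418.2 and 469.6, higher at each time than at the one before. The signal at 192 h was 1.51-fold that at 0 h, and the fitted log2 change was 0.62 ± 0.14 (adjusted p = 0.0343; exact permutation p = 0.0167, the smallest that 120 orders can give). All 4 of its probe sets past the filter had a positive change, from 0.17 to 0.66. The second brightest read 62.4, 50.7, 57.6, 84.0 and 76.9, and the dimmest 27.0, 25.2, 24.4, 17.3 and 38.2. Neither climbed at each step, while the remaining one did, from 24.1 to 43.5.

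The ACVR1B call was close to the threshold. The adjusted p was 0.124, 0.071, 0.0859 and 0.197 when the 0, 24, 96 and 192 h arrays were each left out, while the change stayed between 0.56 and 0.73. With array medians set equal the change was 0.53 (adjusted p = 0.163), and averaged over its probe sets it was 0.49 (0.268).

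The other tested type I receptors ran flat on their brightest probe sets. TGFBR1, the TGF-beta receptor ALK5, read 608.8, 573.0, 638.9, 573.0 and 631.8, and ACVR1, the BMP receptor ALK2, read 122.4, 132.7, 125.3, 128.0 and 129.9. BMPR1B, the BMP receptor ALK6, read 69.0, 71.3, 61.9, 63.6 and 62.8. Their fitted changes of 0.04 ± 0.14, 0.05 ± 0.19 and -0.16 ± 0.25 were smaller than the SE. TGFBR1 and BMPR1B each had another probe set past the filter, with changes of 0.59 and 0.39. The BMPR1B probe sets thus disagreed in sign.

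Of 4 type II receptor genes 3 were tested and 0 passed in limma. At an unadjusted limma p under 0.05, which 17.0% of all genes reached, there was 1. That one was ACVR2B, a receptor for activins and some BMPs. It read 858.1, 949.3, 1039.2, 1036.5 and 1053.6, with all 4 induced arrays above 0 h (0.29 ± 0.13, unadjusted p = 0.0472, adjusted p = 0.288) and all 3 probe sets positive. ACVR2A, its close relative, read 162.0, 192.2, 157.6, 192.2 and 186.2 (0.16 ± 0.19). TGFBR2, without which cells do not respond to TGF-beta, read 13.8, 20.5, 10.8, 15.4 and 15.6 on the brighter of its 2 probe sets. Its mean of 15.2 was just under the filter.

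TGFBR3 fell. It encodes betaglycan, a proteoglycan that presents TGF-beta 2 to the signalling receptors and binds inhibin. Its brighter probe set read 92.2, 95.1, 50.1, 46.3 and 27.4 in time order. The other read 64.2, 40.1, 35.3, 31.8 and 21.7, so both were lowest at 192 h, where the brighter stood, with the offset added, at 33.1% of its 0 h value. In a culture measured in bulk, fewer cells with a transcript and less of it per cell cannot be told apart. The fitted log2 change was -1.66 ± 0.30 (adjusted p = 0.0109; exact permutation p = 0.0333).

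The adjusted p of TGFBR3 was 0.0507 with the 0 h array left out and 0.0826 with the 192 h array left out, with a change of -2.01 to -1.46 when each array was left out. With the spike-in level in the fit it was 0.0759, at a change of -1.58. The summed fibroblast and mural markers were 582, 504, 428.9, 291.8 and 253.9 over the same course, but without PDGFRA the other 5 genes summed to 124.7, 144.3, 131.7, 127.3 and 122.3, so the lower sums were those of PDGFRA (-1.85, adjusted p = 0.00028). PDGFRB (-0.50, adjusted p = 0.456) and ACTA2 (0.45, adjusted p = 0.539) did not pass, and DCN, LUM and FAP had means of 14.7, 9.7 and 2.6. The part of such markers in the result was not tested.

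**Figure D3:**
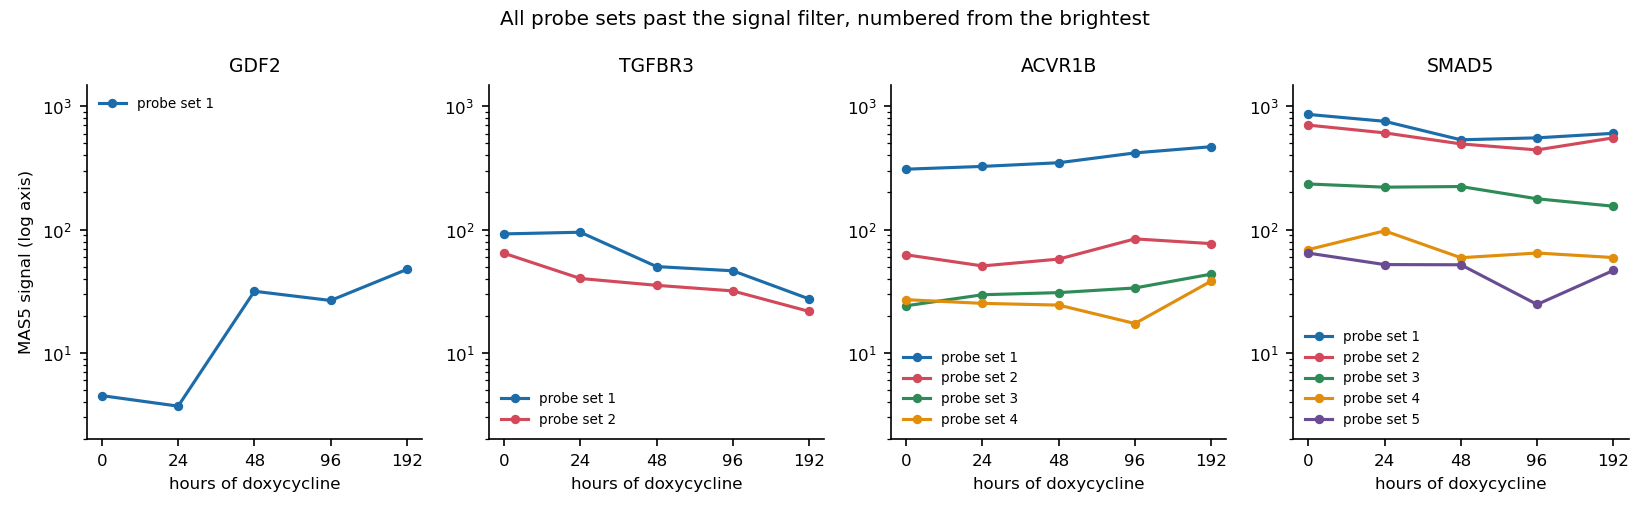
MAS5 signal (log axis) by hours of doxycycline for every probe set past the filter of GDF2, ACVR1B, TGFBR3 and SMAD5, numbered from the brightest, with 1 array a point. Both TGFBR3 probe sets end at 21.7 and 27.4, below their start, the 4 ACVR1B probe sets end above theirs, the 5 SMAD5 probe sets end below theirs, and GDF2 has a single probe set.

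All 5 SMAD genes were tested and 0 passed in limma, with 1 at an unadjusted p under 0.05 (17.0% of all genes). SMAD5, which carries BMP signals, read 857.9, 754.5, 534.2, 554.0 and 602.8 in time order. Every induced array was below 0 h and the lowest was at 48 h. The fitted change was -0.58 ± 0.18 (unadjusted p = 0.00824, adjusted p = 0.118), and all 5 of its probe sets past the filter were negative, from -0.72 to -0.39. Without the 192 h array the change was -0.95 (adjusted p = 0.0414).

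SMAD1, the other BMP SMAD of the list, read 164.6, 178.6, 146.0, 166.5 and 213.5 (0.25 ± 0.21). SMAD2 read 329.6, 344.9, 330.8, 335.5 and 329.3 on its brightest probe set, the flattest course of the 22 tested members by fitted change (-0.02 ± 0.14). Of the 4 SMAD2 probe sets past the filter 1 ran upward (0.31) and 3 downward, the lowest at -0.10. SMAD3, the partner of SMAD2 downstream of TGF-beta and activin, read 130.9, 154.2, 135.6, 107.9 and 111.9, higher at 24 and 48 h than at 0 h and lower later (-0.37 ± 0.21). SMAD4, shared by both branches, read 615.4, 667.7, 520.0, 503.8 and 583.4 (-0.22 ± 0.16).

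Antagonists were near or under the filter. FST, follistatin, which binds activins, read 26.4, 15.7, 14.9, 15.1 and 22.5 on its brightest probe set (-0.17 ± 0.49). It was the dimmest of the 22 tested members, with a mean of 18.9, and its change was 0.50 without the 0 h array. NOG, noggin, had a mean of 16.1, the highest of the genes left out, and the other antagonists CHRD and GREM1 had 12.4 and 7.6. In all, 15 members with a probe set were not tested, with means of 1.7 to 16.1.

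Each induced array was also set against the 0 h array, which all 4 comparisons share, with 2-fold as the size that counted and no test. At 24 h 0 of the 22 tested members were 2-fold from 0 h, against 1.62% of all genes. At 48 h it was 1 member (GDF2; 1.73% of all genes) and at 96 h again 1 (GDF2; 3.37%). At 192 h GDF2 was higher and TGFBR3 lower, 2 members or 9.09%, against 4.22% of all genes. Over all 4 times these were the members 2-fold from 0 h, while 7.31% of all genes were so at some time. All of these differences were taken after the offset of 4.7 was added, and the 0 h signal of GDF2 was under that offset. GDF2 also passed the signal filter only through its later arrays, so nothing is read from these shares. With no signal filter 11 of 37 members were 2-fold from 0 h at some time (29.7%), against 22.0% of all 19775 genes.

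A wider list of 86 pathway genes, written from their known roles, gave the setting: 79 had a probe set, 52 were tested, 7 rose and 3 fell (19.2%, against 3.47% of all genes). Several of these genes were known from earlier results to change, so their share is not independent support. Their median fitted log2 change was 0.10. In the plot by role, most BMP targets lie to the right of the band and the other groups lie on both sides of it.

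Of the 8 genes listed as switched on by BMP signals 4 rose and 0 fell (50%, against 3.47% of all genes in either direction), with a list median of 0.78. That share depends on which genes were listed, since BAMBI, SMAD6 and SMAD7, given below, were placed under other roles. With time in hours, or with the mean over probe sets, 0 of these 4 passed (adjusted p of 0.0668 to 0.198 and 0.0581 to 0.471). ID3, an inhibitor of basic helix-loop-helix factors, read 88.0, 283.7, 211.3, 320.0 and 320.0 (1.52 ± 0.38, adjusted p = 0.049), and its kin ID4 read 98.6, 125.5, 167.4, 187.1 and 206.8 (1.05 ± 0.19). ID2 (0.86) and ATOH8 (0.71) rose too. ID3 passed in 5 of 16 alternatives and ATOH8 in 6 of 16, and ATOH8 had 0.26 with the mean over probe sets. ID1 read 841.4 at 0 h and 1964.6, 1491.5, 1830.0 and 1648.6 later, a jump at 24 h that the straight line did not pass (0.73 ± 0.31, adjusted p = 0.252). MSX2 (0.83), HEY1 (0.35) and MSX1 (-0.007) did not pass.

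**Figure D4:**
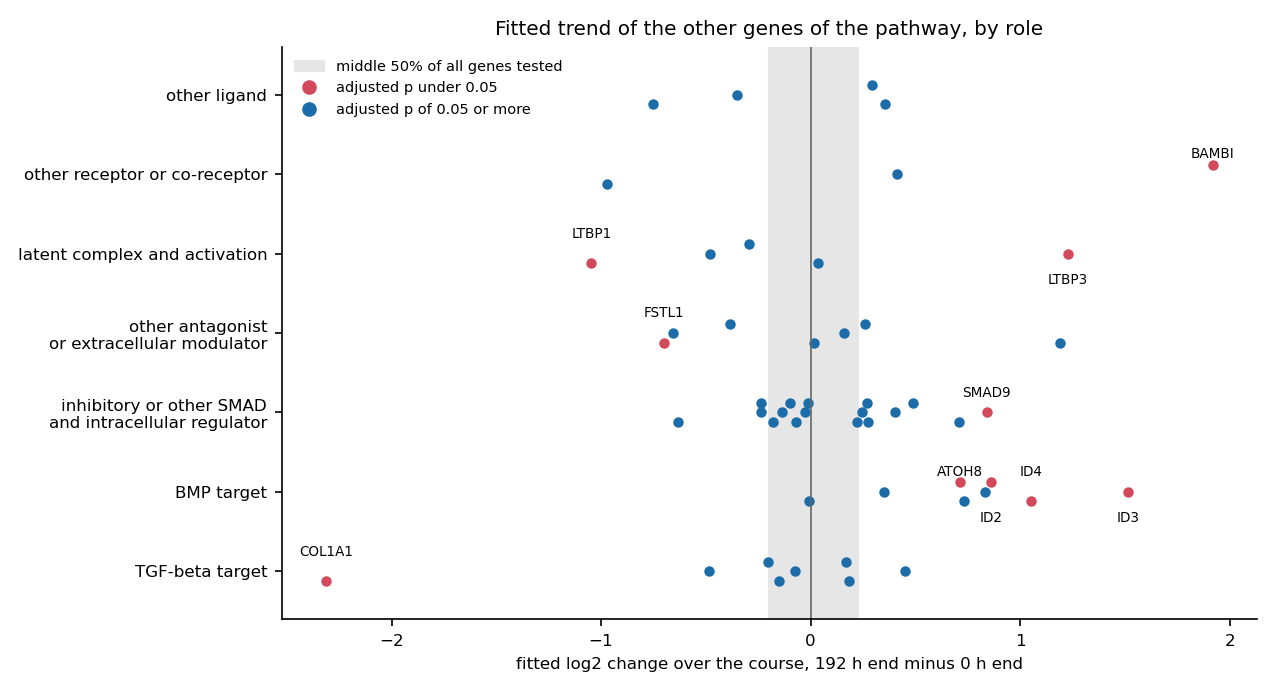
Fitted log2 change over the course for the 52 tested pathway genes outside the core list, in rows by role, with genes past the threshold in red and named and the middle 50% of all genes tested in grey. BAMBI, at 1.92, and COL1A1, at -2.31, lie farthest out, and all 4 called BMP targets lie on the positive side.

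Of the receptors and intracellular regulators, BAMBI, a pseudoreceptor that blocks type I receptors, rose with 223.7, 331.0, 387.0, 647.9 and 859.3 (1.92 ± 0.15, adjusted p = 1.24e-04). SMAD9, the remaining BMP SMAD, rose as well, at 579.2, 782.8, 679.2, 837.9 and 1165.3 (0.84 ± 0.18, adjusted p = 0.0233). The inhibitory SMAD genes SMAD6 (0.49, adjusted p = 0.406) and SMAD7 (0.27, 0.568) did not pass. Among 17 inhibitory or other SMAD and intracellular regulator genes SMAD9 was the one that passed (5.88%, against 3.47% of all genes). RGMA, a BMP co-receptor, had -0.97 with an adjusted p of 0.083.

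Of 5 tested genes of the latent complex and its activation 1 rose and 1 fell (40%), and of 7 other antagonists or extracellular modulators 0 rose and 1 fell (14.3%), against 3.47% of all genes. The latent TGF-beta binding protein genes LTBP1 and LTBP3, whose products hold the inactive ligand in the matrix, were called in opposite directions, and LTBP4, ITGAV and ITGB8 did not pass. LTBP1 fell, at 158.1, 135.6, 125.6, 97.9 and 72.2 (-1.05 ± 0.21, adjusted p = 0.017). LTBP3 rose, at 58.3, 61.1, 64.3, 110.0 and 133.5 (1.23 ± 0.27, adjusted p = 0.0263). FSTL1, a secreted follistatin relative, fell (-0.70, adjusted p = 0.0302), but had -0.39 with the mean over probe sets (adjusted p = 0.332). TWSG1, a BMP modulator, had -0.66 with an adjusted p of 0.0729.

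Of 8 tested TGF-beta targets 0 rose and 1 fell (12.5%, against 3.47% of all genes in either direction), with a list median of -0.11. The 1 that fell was the collagen gene COL1A1 (-2.31 ± 0.31, adjusted p = 0.00251). With the mean over its 4 probe sets past the filter the change was -1.18 (adjusted p = 0.0142). Of the fibroblast and mural markers given above PDGFRA fell too, while the sum of the other 5 was 122.3 at 192 h, against 124.7 at 0 h; their part in the result was not tested. FN1, fibronectin, read 355.7, 320.1, 455.5, 449.8 and 251.2 and did not pass (-0.20). CCN2, TGFBI and CDKN2B were under the filter.

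BAMBI and COL1A1 passed without each array in turn, and the other called pathway genes were each lost without at least 1 array. Leaving out the 0 h array, only these 2 of the 52 passed. With the 192 h array left out 3 passed, ID4 being the other one, and with the 96 h array left out 6. Without the 24 h array ATOH8, FSTL1 and LTBP3 did not pass and ID1 did, and with the 48 h array left out ID3 did not. The change of ID3 was 0.44 and that of COL1A1 -3.13 when the 0 h array was left out. With the 192 h array left out COL1A1 had -1.52. With no signal filter 1 of the 10 passed.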

How the data were processed

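RNA of 5 samples was hybridised to 5 Affymetrix U133 Plus 2.0 arrays, per the labels' protocols. The authors' deposited values are log2 of the MAS5 signal, with MAS5 and GCOS named without versions per the submitters' processing notes. The log2 step, a floor at 0 and whole-array scaling (trimmed mean of 100.02 to 100.03) were read from the deposited values; detection calls were not used. Signals were returned to the linear scale, 4.7 (the median 25th percentile) was added and log2 taken. Control probe sets (62) were left out, and 11721 probe sets without a gene name and 1801 with several were not used. RefSeq held 41037 of the 41091 probe sets by gene identifier.

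Across the 11944 genes whose brightest probe set had a mean signal of at least 17.9, limma 3.58.1 (R 4.3.3) fitted log2 signal on the time step with eBayes and trend (3 residual, 9.07 prior degrees of freedom). P-values were two-sided and adjusted by Benjamini-Hochberg across all tested genes. The fit was tested on simulated data. The simulation drew independent noise and added straight-line changes. It therefore could not speak to array-wide shifts, selection by the signal filter or step-shaped courses. Nothing in the labels says that samples came from separate cultures, and each time point has 1 array, whose number limits the precision. The members, the pathway and marker lists, the motifs and the alternatives were chosen with earlier results of these data known. Values on all arrays are given for tested members that passed, had an unadjusted p under 0.05 or a 2-fold difference, for receptors and SMADs past the filter, and for GDF2; further members were added after their values were seen.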

Additional observations from a re-analysis of the deposited data

How the results depend on the processing

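Of the 22 members 3 passed. The number was 1 with time in hours (TGFBR3), 0 with no signal filter (19775 genes tested), 0 with eBayes without trend and 0 with the spike-in level as covariate; leaving out each array in turn gave 0 (without the 0 h array) to 3. Over all genes 415 passed, 21 with no signal filter and 22 with eBayes without trend, so these 2 settings lost most calls of the whole table. With array medians set equal 196 genes rose and 233 fell, against 241 and 174. Of 52 other pathway genes 10 passed, 1 with no signal filter, 1 with eBayes without trend, 5 with the mean over probe sets, and 2 (without the 0 h array) to 9 when each array was left out. Members 2-fold from 0 h numbered 11 with no filter and 1 with a filter at 2 times the median, where 18 members were tested and GDF2 was not tested; with no filter 37 members were kept. GDF2, ACVR1B and TGFBR3 kept their sign in all alternatives, and passed in 8 of 15, 6 of 16 and 11 of 16.

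Among members that did not pass, fitted changes turned sign as follows, and the cause was not tested. With array medians set equal ACVR1 had -0.042 and TGFBR1 -0.046. With the spike-in covariate BMP2 had 0.37, FST 0.11 and SMAD4 0.075. With the mean over probe sets BMPR1B had 0.12 and SMAD2 0.037, and with time in hours FST had 0.053. When each array was left out in turn the lowest and highest changes were -0.024 and 0.084 for ACVR1, -0.47 and 0.074 for BMP2, -0.24 and 0.027 for BMPR2, -0.80 and 0.50 for FST, -0.18 and 0.40 for GDF11, -0.87 and 0.25 for INHBE, -0.094 and 0.38 for SMAD1, -0.071 and 0.007 for SMAD2, -0.82 and 0.33 for TGFB2, and -0.042 and 0.11 for TGFBR1. No paired analysis was possible because each time point has 1 array. The 15 members under the filter were not tested because of their low signal over background.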
